A study of Homo sapiens with 18 samples.

Results

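The 45 genes described here encode enzymes that write or erase methyl groups on histones and DNA, with a few of their partner subunits and deacetylases, in THP1 (THP-1) cells, an established human line of monocytic leukaemia that carries the MLL-AF9 fusion. They were chosen by name from 19784 genes and comprise 15 demethylases, 17 histone methyltransferases, 5 subunits or cofactors of methyltransferase complexes, 3 deacetylases and 5 DNA methylation enzymes. PHF8, the demethylase varied in the study, was left out of the count. RNA was measured by poly(A) RNA sequencing in 18 libraries. The series asks how epigenetic regulators affect the type I interferon response and self-renewal in this leukaemia. In the first experiment, THP1 cells of genotype PHF8 and of genotype F279S were compared with THP1 cells labelled wt (n = 4 libraries each). The F279S form lacks catalytic activity, as background knowledge has it. In the second, harvested on day 3, THP1 lines named ERDD, ERPHF8 and ERAA were compared (n = 2 each). Their genotype labels are PHF8DD, PHF8 and PHF8AA. The labels give 4-OHT (4-hydroxytamoxifen, 100 nM) for ERDD and ERAA and no treatment for ERPHF8, so 4-OHT and line cannot be told apart in comparisons with ERPHF8. No day 3 wt library was analysed here, what AA, DD and ER stand for is left unsaid, and the labels do not say whether a line is 1 clone or a pool. All groups are THP1 and so share the fusion.

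Methylation of histone lysines is set by SET-domain methyltransferases (and DOT1L, which has another fold) and removed by 2 families of demethylases, the flavin-dependent KDM1 enzymes and the JmjC enzymes, which use iron and 2-oxoglutarate. PHF8 belongs with PHF2 and KDM7A to the KDM7 family, in which a PHD finger that binds trimethylated H3K4 sits beside a JmjC domain that acts on repressive methyl marks such as dimethylated H3K9. DNA methylation is placed by DNMT3A and DNMT3B, copied at replication by DNMT1 and oxidised by TET enzymes, and TET2 and DNMT3A are among the genes often mutated in myeloid leukaemia. In leukaemias with MLL fusions, DOT1L and menin (MEN1) are known partners on which the fusion depends.

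Levels are given as CPM, reads of a gene scaled to its library's total, obtained from the deposited RPKM values. Differences are log2 fold changes on log2(CPM + 0.5), with the standard error (SE), and a gene was called where limma's Benjamini-Hochberg adjusted p over all tested genes was below 0.05. Nothing in the labels says that libraries of a group came from separate cultures, so p-values measure the spread between these libraries, which may be technical. PHF8 RNA stood at 1900 to 2096 CPM in PHF8 libraries and 5001 to 5781 CPM in F279S libraries, against 45.5 to 54.0 CPM in wt libraries. In the ER lines it stood at 1098 and 1119 CPM in ERDD, 1900 and 1912 CPM in ERPHF8, and 2305 and 1995 CPM in ERAA. Depth was 18.2 to 51.5 M reads. In the first experiment, libraries 1 and 2 of each line (18.2 to 24.3 M reads) differed in profile from libraries 3 and 4 (20.8 to 51.5 M reads). For some genes results are also given within each pair. The summed level of 8 monocytic markers, all 8 detected in every library, was 1234 to 1580 CPM in PHF8, 1810 to 2110 CPM in F279S and 1834 to 2436 CPM in wt. It was 1768 to 1793 CPM in ERDD, 1454 to 1463 CPM in ERPHF8 and 1818 to 1848 CPM in ERAA. Of the 8, limma called 3 lower (LYZ, SPI1 and CD4) and CD68 higher in PHF8 against wt, and LYZ averaged 252 ± 93.1 CPM in PHF8 and 855 ± 148 CPM in wt (SD, n = 4 each). In PHF8 against wt 21.0% of all genes were called. In ERDD against ERAA 3 of the 8 were called higher and 3 lower, beside 68.1% of all genes called. In ERPHF8 against ERAA 0 were called higher and 7 lower, beside 53.8% of all genes called. T-cell and erythroid markers (3 each) summed to at most 0.762 CPM in any library, epithelial markers to at most 1.57 CPM, B-cell markers to between 4.24 and 13.1 CPM and megakaryocyte markers to between 0.853 and 5.70 CPM. The megakaryocyte marker ITGA2B had 0.731 and 1.04 CPM in ERDD, 1.72 and 1.47 CPM in ERPHF8 and 3.96 and 3.83 CPM in ERAA, and was called lower against ERAA in ERDD (-1.67) and ERPHF8 (-1.07). Collagen genes stood apart in 2 libraries, PHF8 replicate 1 (COL1A1 at 13.3 CPM, COL1A2 at 10.0 CPM) and F279S replicate 2 (20.5 and 10.2 CPM), while COL1A2 was at most 0.247 CPM in the other libraries. What part depth and the marker genes have in the results below was not tested. Values within each library pair and without the 2 libraries with collagen reads are given beside some of the results they change.

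Of the 45 enzymes, 44 passed the filter on low values in both experiments. The exception was KDM6A (UTX), a demethylase of H3K27, which held 0 to 21 reads a library and at most 0.509 CPM. In F279S replicates 1 and 2 it had 0 reads, and a count of 0 allows up to 0.130 and 0.164 CPM there. Its paralogue KDM6B (JMJD3) was detected in every library. Levels can be compared between genes only per length, and per kilobase of merged exons the highest mean in wt was that of TRIM28, at 127.7 CPM, followed by KDM4A at 97.8 CPM, WDR5 at 49.4 CPM, HDAC1 at 41.2 CPM and DNMT1 at 33.4 CPM. The lowest of the genes that passed was KDM7A at 0.266 CPM, followed by KDM8 at 1.201 CPM, KDM6B at 2.01 CPM and DNMT3B at 2.09 CPM. Reads were counted over whole gene spans, so these levels hold intronic reads as well. For 10 members the span overlaps another gene of the table and reads may be shared: KDM2B, KDM5A, KMT2B, KMT2D, KMT2E, SETDB1, SUV39H2, DOT1L, ASH2L and DNMT1. The overlapping gene had more reads than the member itself for KMT2E, SETDB1, SUV39H2 and DOT1L, and about 1.06% of the member's level for DNMT1.

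In PHF8 against wt, 9 of 44 enzymes were called, 3 higher and 6 lower. That is 20.5% of the members tested, beside 21.0% of all genes tested, so the share of enzymes called was near the background. The demethylases KDM7A and KDM1B were the largest rises, and the demethylase PHF2 and the 5-methylcytosine dioxygenase TET2 the largest falls. The H3K4 methyltransferases KMT2B and KMT2D, the H3K9 and H3K36 demethylase KDM4A and the H3K36 methyltransferase NSD1 fell, and the H3K9 methyltransferase SUV39H2 rose. In these bulk libraries, fewer cells of a kind and less RNA per cell cannot be told apart. The median log2 fold change was -0.06 over the enzymes and 0.005 over all genes. With the replicate number as a block, 20 members were called (6 higher, 14 lower), beside 41.4% of all genes. The 11 added were KDM1A, KDM2A, KDM4B, KDM5C, KDM6B, KMT2E, SETDB2, EHMT1, DOT1L, ASH1L and ASH2L, with limma's adjusted p from 0.00323 to 0.048. With each library pair averaged to 1 value and the pair as a block, 6 were called, beside 13.0% of all genes: KDM1B, KDM7A, PHF2, KMT2B, KMT2D and TET2. In that fit none of the 11 was called (limma's adjusted p from 0.0871 to 0.269), nor were KDM4A (0.0785), NSD1 (0.116) and SUV39H2 (0.134). Median-ratio scaling gave 12 (2 higher, 10 lower), beside 21.3% of all genes. Without the 2 libraries that hold collagen reads 7 were called, beside 15.2% of all genes, and the calls of SUV39H2 and NSD1 were lost.

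Stretches upstream of KDM1B, KDM7A, PHF2 and TET2 are shown because only these members were called in PHF8 against both wt and F279S. Their 4 PHF8 libraries also lay outside the range of both other lines. The share of all genes without overlap between lines was not computed. Whether these members, or those below that lack overlap, stand out from other genes is thus not known. The sequences are RefSeq's on GRCh38.p14, taken from the 250 bases before the RefSeq start and ended at the gene start of the deposited tables where that comes first. They run 5′ to 3′ on the gene's strand, with CpG dinucleotides, the sites that DNMT enzymes methylate, in capitals.
KDM1B (chr6:18155172-18155328, plus strand): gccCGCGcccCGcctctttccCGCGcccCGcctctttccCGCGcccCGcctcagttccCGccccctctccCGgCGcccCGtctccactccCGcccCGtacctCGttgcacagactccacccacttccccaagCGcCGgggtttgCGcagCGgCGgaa
KDM7A (chr7:140177036-140177233, minus strand): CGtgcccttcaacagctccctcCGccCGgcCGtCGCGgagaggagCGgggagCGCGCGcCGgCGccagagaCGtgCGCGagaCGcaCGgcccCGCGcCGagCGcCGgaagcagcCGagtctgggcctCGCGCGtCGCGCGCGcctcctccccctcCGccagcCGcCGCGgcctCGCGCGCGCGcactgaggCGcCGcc
PHF2 (chr9:93576334-93576406, plus strand): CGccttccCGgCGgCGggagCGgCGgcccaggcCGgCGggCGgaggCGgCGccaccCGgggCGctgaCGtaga
TET2 (chr4:105145625-105145874, plus strand): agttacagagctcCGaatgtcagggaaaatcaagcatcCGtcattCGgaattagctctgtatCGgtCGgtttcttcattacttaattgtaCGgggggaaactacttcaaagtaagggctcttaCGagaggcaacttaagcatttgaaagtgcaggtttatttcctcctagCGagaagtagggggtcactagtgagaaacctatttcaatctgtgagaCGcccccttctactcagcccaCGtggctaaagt

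The full window of 250 bases held 30 CpG in KDM1B, 50 in KDM7A, 46 in PHF2 and 10 in TET2, for which RefSeq lists another start with 34. Over 35114 windows of all genes the median was 11 CpG (quartiles 3 and 23), and over 63 windows of 41 members it was 22. The core of the interferon-stimulated response element, GAAA and GAAA with any 2 bases between them, searched on both strands like the other motifs, was in 3.02% of all windows and in 0 of the 63. The E-box CACGTG was in 6.35% of all windows and in 12 of the 63, which belong to KDM4B, KDM6A, KMT2D, SETDB1, EHMT2, NSD1, WDR5, DNMT3A, TET2 and TET3. For SETDB1 and for DNMT3A the windows with a match overlap each other, so 1 site may count more than once. The E-box also holds a CpG, and windows of members were richer in CpG than those of all genes. TTTCCCGC, a form of the E2F site, was in 1.39% of all windows and in 1 of the 63, that of KDM1B, which holds 2 matches within the stretch above. Matches are letters only and were not tested for binding.

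The KDM7 family, to which PHF8 belongs, moved in opposite directions. KDM7A, whose gene lies on chromosome 7 (140084746 to 140177035, hg38), stood at 4.00, 4.32, 5.68 and 5.08 CPM in PHF8 libraries, 1.95, 1.64, 2.73 and 2.54 CPM in F279S libraries and 2.50, 1.75, 3.22 and 2.55 CPM in wt libraries. All PHF8 libraries were above all others, at a low level throughout. The log2 fold change against wt was 0.82 ± 0.18 (SE; adjusted p = 0.00738). PHF2 (chromosome 9, 93576407 to 93679587) stood at 33.6, 32.4, 36.9 and 33.7 CPM in PHF8, 47.8, 46.7, 49.7 and 49.1 CPM in F279S and 53.8, 51.0, 52.8 and 48.6 CPM in wt. Here all PHF8 libraries were below all others, with a mean of 34.1 ± 1.95 CPM in PHF8 and 51.6 ± 2.27 CPM in wt (SD, n = 4 each). The fold change against wt was -0.59 ± 0.06 (SE; adjusted p = 4.15e-05). Within libraries 1 and 2 and within libraries 3 and 4, KDM7A had 0.84 and 0.80 and PHF2 had -0.66 and -0.52, each called.

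**Figure D1:**
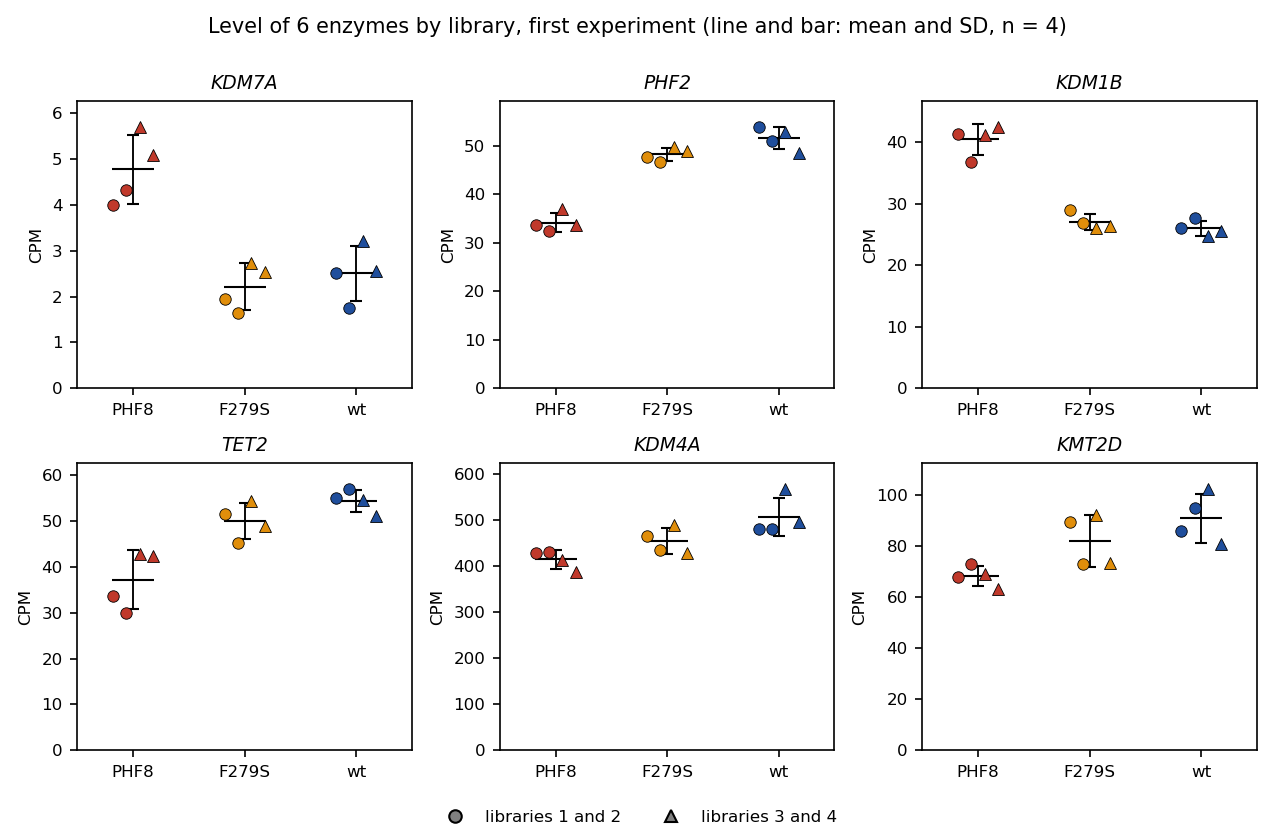
CPM of KDM7A, PHF2, KDM1B, TET2, KDM4A and KMT2D in each library of the first experiment, with PHF8 left, F279S in the middle and wt right. Circles are libraries 1 and 2, triangles libraries 3 and 4, and the line and bar are the mean and SD (n = 4). The PHF8 libraries lie above the wt libraries for KDM7A and KDM1B and below them for the other 4 genes.

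Among the other demethylases, KDM1B (LSD2, which acts on mono- and dimethylated H3K4; chromosome 6, 18155329 to 18223853) had 41.3, 36.8, 41.2 and 42.4 CPM in PHF8, 28.9, 26.9, 26.1 and 26.3 CPM in F279S and 26.0, 27.6, 24.7 and 25.6 CPM in wt. The PHF8 libraries shared no value with either other line, and the fold change against wt was 0.63 ± 0.07 (SE; adjusted p = 5.77e-05). Its paralogue KDM1A (LSD1) had 135, 128, 120.3 and 117 CPM in PHF8 and 129, 125, 93.9 and 91.2 CPM in wt. It was not called (0.20, adjusted p = 0.346), and within the pairs it had 0.05 in libraries 1 and 2 and 0.35, which was called, in libraries 3 and 4. KDM4A, which removes trimethyl marks from H3K9 and H3K36, had 429, 431, 412 and 387 CPM in PHF8, 465, 435, 488 and 429 CPM in F279S and 481, 479.6, 566 and 497 CPM in wt. It was lower in PHF8 than in wt, with a fold change of -0.28 ± 0.07 (SE; adjusted p = 0.0132), and called in both pairs (-0.16 and -0.41) but not with pairs averaged.

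The related KDM4B differed more between library pairs than between lines. It had 47.3 and 47.8 CPM in PHF8 libraries 1 and 2 against 59.2 and 59.7 CPM in wt libraries 1 and 2, and 109 and 97.5 CPM in PHF8 libraries 3 and 4 against 153 and 131 CPM in wt libraries 3 and 4. Each pair taken alone was called lower (-0.32, adjusted p = 0.000192, and -0.45, adjusted p = 0.00992, limma), while over all libraries it was not (-0.39, adjusted p = 0.646). KDM6B, the H3K27 demethylase, had 9.73, 10.3, 9.46 and 9.93 CPM in PHF8 and 13.2, 10.3, 18.6 and 16.5 CPM in wt. The difference of -0.51 ± 0.18 (SE; adjusted p = 0.0577) was not called by limma, and it was called in libraries 3 and 4 (-0.82) but not in libraries 1 and 2 (-0.21). KDM5C, an H3K4 demethylase, had -0.17 (adjusted p = 0.0502) and was called with the replicate block (adjusted p = 0.00407, limma), as was KDM2A, an H3K36 demethylase (-0.18, adjusted p = 0.074, with the block 0.00531). Both were called in libraries 1 and 2 alone (-0.15 for KDM5C, -0.21 for KDM2A). Neither was called in libraries 3 and 4 alone (-0.18 and -0.15). KDM2B, KDM3B, KDM5A, KDM5B and KDM8 were not called, with fold changes from -0.14 to 0.08.

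Of the 17 histone methyltransferases, 4 were called (23.5%), beside 21.0% of all genes. KMT2D, the methyltransferase of a complex known for methylating H3K4 at enhancers, had 67.9, 72.8, 69.2 and 63.2 CPM in PHF8, 89.3, 73.0, 92.2 and 73.2 CPM in F279S and 86.0, 94.8, 102 and 80.6 CPM in wt. Every PHF8 library was below every wt library, with a fold change of -0.41 ± 0.10 (SE; adjusted p = 0.0116). KMT2B, its relative at promoters, had 76.6, 77.8, 72.9 and 63.0 CPM in PHF8, 93.6, 88.1, 89.0 and 74.4 CPM in F279S and 95.4, 92.2, 98.8 and 83.9 CPM in wt. It fell likewise without overlap (-0.35 ± 0.09 SE, adjusted p = 0.0153). Both genes overlap another gene of the table, whose level was 27.05% of that of KMT2D and 13.4% of that of KMT2B. KMT2A, the gene rearranged in the MLL-AF9 fusion of these cells, had 77.2, 79.6, 93.4 and 87.5 CPM in PHF8 and 78.4, 82.1, 109 and 94.3 CPM in wt. Its groups overlapped and it was not called (-0.10, adjusted p = 0.628).

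NSD1, which methylates H3K36, had 129.9, 131, 140.1 and 137 CPM in PHF8, 154, 133, 141 and 135 CPM in F279S and 157, 165, 156 and 149 CPM in wt. Its fold change of -0.22 ± 0.06 (SE; adjusted p = 0.0216) against wt was no longer called without PHF8 replicate 1, PHF8 replicate 2 or wt replicate 2. Within the pairs NSD1 had -0.30 in libraries 1 and 2, which was called, and -0.13 in libraries 3 and 4, which was not. SUV39H2, which trimethylates H3K9, had 38.3, 34.7, 33.98 and 35.7 CPM in PHF8, 36.7, 35.4, 28.8 and 29.5 CPM in F279S and 29.6, 31.7, 28.9 and 28.0 CPM in wt. Its rise of 0.27 ± 0.09 (SE; adjusted p = 0.0468) was lost without any 1 of 7 libraries (each of the 4 PHF8 libraries, and wt replicates 1, 3 and 4), and its span overlaps that of DCLRE1C, whose level was 244% of its own. The other H3K9 methyltransferases were not called: SUV39H1 had -0.10, SETDB1 -0.15, SETDB2 0.26, EHMT2 (G9a) -0.01 and EHMT1 (GLP) -0.18 (adjusted p = 0.0511). EHMT1, at 107, 113, 112 and 102 CPM in PHF8 and 122, 125, 128 and 116 CPM in wt, did not overlap between the lines and was called with the replicate block (adjusted p = 0.00375, limma). Taken alone, libraries 1 and 2 called EHMT1 (-0.17) and libraries 3 and 4 did not (-0.19). DOT1L, the H3K79 methyltransferase, had 171, 177, 164 and 146 CPM in PHF8 and 176, 179.9, 210.2 and 171 CPM in wt and was not called (-0.16, adjusted p = 0.18). The H3K4 enzymes SETD1A, SETD1B and SETD7, the H3K36 enzymes SETD2 and ASH1L, and KMT2E were not called, with fold changes from -0.28 to -0.01.

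None of the 5 subunits or cofactors and none of the 3 deacetylases was called in PHF8 against wt by limma. The core subunits of H3K4 methyltransferase complexes had 0.15 for ASH2L, -0.08 for WDR5 and 0.11 for RBBP5, menin (MEN1) had -0.02, and TRIM28 (KAP1), which brings SETDB1 to zinc finger proteins, had 0.00. Of these, ASH2L did not overlap between the lines, at 149.99, 149.8, 140.4 and 138 CPM in PHF8 and 129, 130.3, 128 and 134 CPM in wt (adjusted p = 0.0757, and 0.0164 with the replicate block, limma). The class I deacetylases HDAC1, HDAC2 and HDAC3 had 0.14, 0.10 and -0.01. At an unadjusted p below 0.05 there were 16 of the 44 members tested, ASH2L and HDAC1 among them, beside 4410 of 13683 genes.

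Of the DNA methylation enzymes, TET2 was called. TET2 (chromosome 4, 105145875 to 105279816) had 33.6, 29.9, 42.8 and 42.2 CPM in PHF8, 51.4, 45.1, 54.2 and 48.9 CPM in F279S and 54.9, 56.8, 54.6 and 51.1 CPM in wt. The PHF8 libraries were below all others, and the fold change against wt was -0.56 ± 0.11 (SE; adjusted p = 0.00351). It was larger in libraries 1 and 2 (-0.81) than in libraries 3 and 4 (-0.31), a difference that was itself called (0.50, adjusted p = 0.00628, limma). TET3, the other dioxygenase among the members, had 78.7, 78.0, 78.0 and 75.7 CPM in PHF8, 91.0, 76.8, 80.7 and 72.1 CPM in F279S and 89.3, 90.2, 85.2 and 72.0 CPM in wt, with overlapping groups (-0.11, adjusted p = 0.423). DNMT1 had 357, 353, 328 and 275 CPM in PHF8, 366, 337, 324 and 278 CPM in F279S and 338, 345, 334 and 292 CPM in wt, also overlapping (0.00, adjusted p = 0.996). DNMT3A had 50.5, 51.1, 59.6 and 55.4 CPM in PHF8, 49.2, 45.1, 73.0 and 66.0 CPM in F279S and 47.9, 49.2, 83.4 and 69.5 CPM in wt. In F279S and wt its libraries 3 and 4 were well above libraries 1 and 2, and less so in PHF8 (-0.17, adjusted p = 0.613). DNMT3B had 9.93, 11.1, 12.7 and 10.1 CPM in PHF8, 9.04, 8.11, 11.5 and 10.2 CPM in F279S and 9.06, 7.88, 12.1 and 9.67 CPM in wt and was not called (0.18, adjusted p = 0.442).

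**Figure D2:**
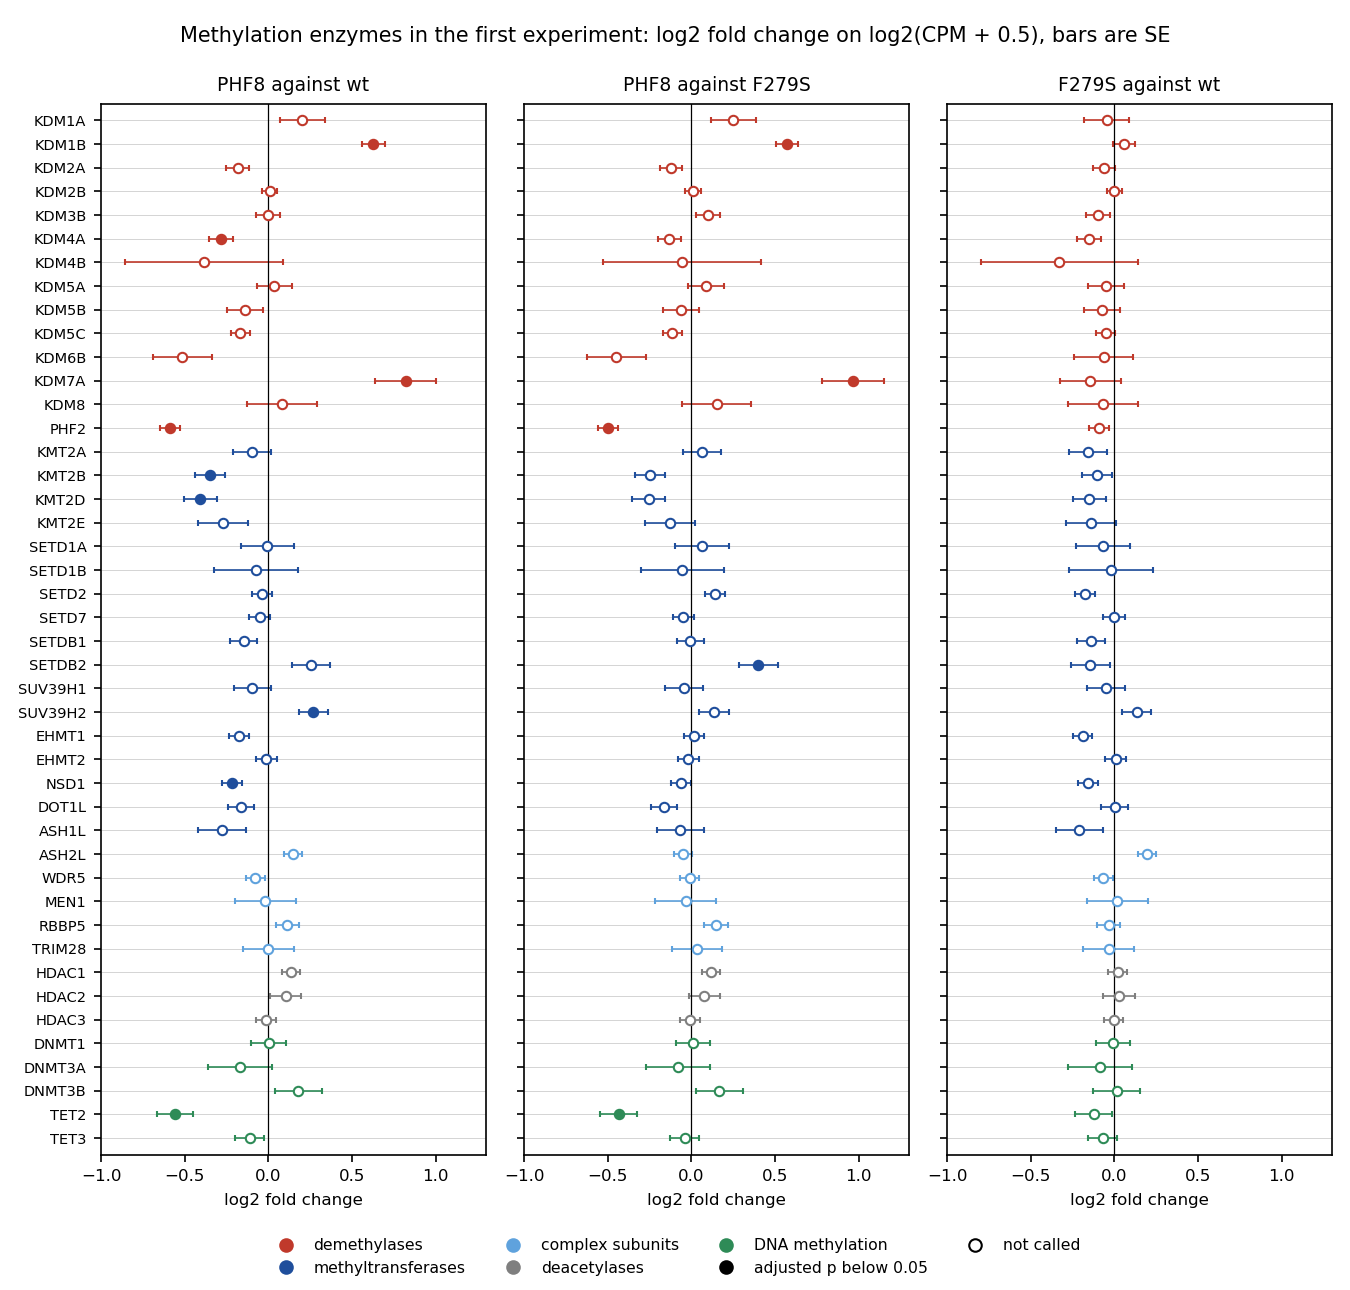
Log2 fold change on log2(CPM + 0.5) of the 44 enzymes tested in the first experiment, in PHF8 against wt (left), PHF8 against F279S (middle) and F279S against wt (right). Colours mark the enzyme class, bars are SE, and filled points have an adjusted p below 0.05. There are 9 filled points on the left, 5 in the middle and 0 on the right.

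The difference of PHF8 from wt was also compared between the library pairs. The difference between pairs was called for 12 members, 27.3% of those tested, beside 30.5% of all genes. The median difference, libraries 3 and 4 minus libraries 1 and 2, was -0.05. KDM6B (-0.61 ± 0.16), KDM5B (-0.49 ± 0.11), DNMT3A (-0.47 ± 0.12), KMT2E (-0.42 ± 0.13) and SETDB1 (-0.32 ± 0.11) were lower relative to wt in libraries 3 and 4 than in libraries 1 and 2. TET2 (0.50 ± 0.11), KDM1A (0.30 ± 0.07), HDAC2 (0.30 ± 0.09), RBBP5 (0.26 ± 0.08), TRIM28 (0.24 ± 0.08), WDR5 (0.23 ± 0.07) and HDAC1 (0.22 ± 0.07) were higher relative to wt in libraries 3 and 4. KDM5B, which demethylates H3K4, had 116 and 118 CPM in PHF8 against 109 and 109 CPM in wt for libraries 1 and 2, and 111 and 99.8 CPM in PHF8 against 144 and 131 CPM in wt for libraries 3 and 4. Its order between the lines thus differed between the pairs. TRIM28 had 536 and 567 CPM in PHF8 against 612 and 588 CPM in wt for libraries 1 and 2, and 485 and 452 CPM against 429.9 and 431 CPM for libraries 3 and 4, with the opposite order. The count was 6 without PHF8 replicate 2, PHF8 replicate 4, wt replicate 1 or wt replicate 3, and 7 without PHF8 replicate 1. Without the 2 libraries that hold collagen reads it was 9, beside 21.1% of all genes. In both pairs taken alone, KDM1B, KDM7A and SUV39H2 were called higher, PHF2, TET2, KDM4A, KDM4B, KMT2B and KMT2D were called lower, and 0 members were called in opposite directions. Libraries 1 and 2 alone called 52.0% of all genes and libraries 3 and 4 alone 42.1%. The share of all genes called in both pairs was not computed.

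**Figure D3:**
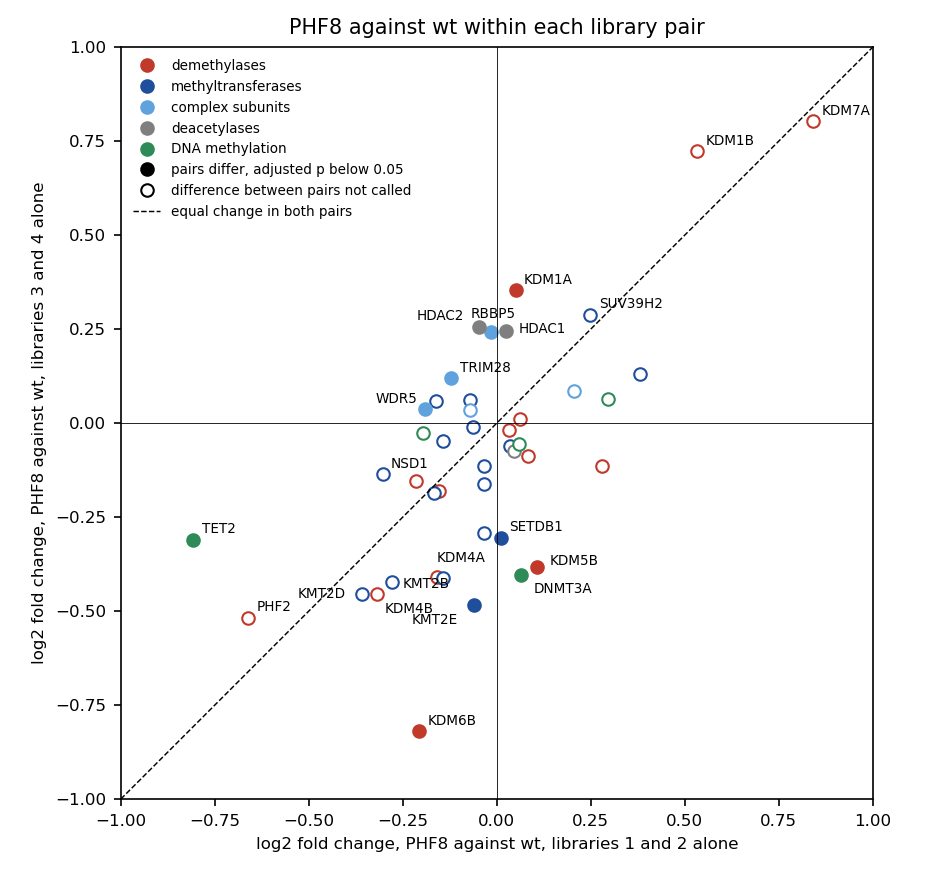
Log2 fold change of PHF8 against wt within libraries 1 and 2 (x axis) and within libraries 3 and 4 (y axis) for the 44 enzymes tested, with the dashed line at equal change. Filled points are the 12 members whose difference between pairs was called. KDM7A lies at 0.84 and 0.80 and PHF2 at -0.66 and -0.52, while KDM6B lies at -0.21 and -0.82.

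In PHF8 against F279S, 5 members were called, 3 higher and 2 lower in PHF8. That is 11.4% of the members tested, beside 20.1% of all genes. This comparison uses the same PHF8 libraries as that with wt, so its values are given beside those and do not stand apart from them. KDM7A was higher in PHF8 than in F279S by 0.97 ± 0.18 (SE; adjusted p = 0.00302) and KDM1B by 0.57 ± 0.07 (SE; adjusted p = 0.000121). PHF2 was lower, with -0.50 ± 0.06 (SE; adjusted p = 0.000147), as was TET2, with -0.43 ± 0.11 (SE; adjusted p = 0.0154). Without PHF8 replicate 1, which holds collagen reads, 3 members were called, and TET2 was not among them. SETDB2, an H3K9 methyltransferase, was called here and not against wt. It had 71.7, 72.1, 57.2 and 53.7 CPM in PHF8, 54.3, 49.9, 45.2 and 42.3 CPM in F279S and 55.4, 54.9, 55.3 and 46.2 CPM in wt, so that PHF8 library 4 lay in the range of the F279S libraries. Its fold change against F279S was 0.40 ± 0.11 (SE; adjusted p = 0.0285), with 0.46 in libraries 1 and 2 and 0.34 in libraries 3 and 4, and the call was lost without PHF8 replicate 1, PHF8 replicate 2, F279S replicate 3 or F279S replicate 4. KMT2B and KMT2D had -0.25 (adjusted p = 0.0741) and -0.25 (adjusted p = 0.093) in this comparison, and KDM4A had -0.13 (adjusted p = 0.233). The median over the members was -0.01, beside 0.02 over all genes. With the replicate block 13 members were called, 5 higher and 8 lower, beside 41.1% of all genes. The 8 added were KDM1A and SETD2, higher in PHF8, and KDM2A, KDM5C, KDM6B, KMT2B, KMT2D and DOT1L, lower. With pairs averaged and the pair as a block, 4 were called (KDM1B, KDM7A, SETDB2 and PHF2), beside 11.6% of all genes, while TET2 (limma's adjusted p = 0.0858) and the 8 (from 0.0809 to 0.316) were not. Median-ratio scaling gave 7, 3 higher and 4 lower, beside 20.1% of all genes. Without the 2 libraries that hold collagen reads 3 were called (KDM7A, KDM1B and PHF2), beside 10.4% of all genes.

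In F279S against wt, limma called 0 of 44 members, beside 0.0146% of all genes (2 genes). At an unadjusted p below 0.05 there were 4 members and 871 of all genes, and limma voom on the recovered reads also called 0 members. The 4 were SETD2, EHMT1 and NSD1, all of them lower in F279S, and ASH2L, which was higher. ASH2L had 153, 156, 140.1 and 149 CPM in F279S against 129, 130.3, 128 and 134 CPM in wt, without overlap (0.19 ± 0.05 SE, adjusted p = 0.371). EHMT1 had 112, 108, 109.5 and 100.1 CPM in F279S against 122, 125, 128 and 116 CPM in wt, also without overlap (-0.19 ± 0.06 SE, adjusted p = 0.462). With the replicate block these 2 members were called (adjusted p = 0.0431 for ASH2L and 0.0339 for EHMT1, limma), beside 2.18% of all genes, and with pairs averaged 0 were (adjusted p = 0.967 for each). For the members that stood apart in PHF8 cells, F279S against wt gave -0.14 ± 0.18 for KDM7A, 0.06 ± 0.07 for KDM1B, -0.09 ± 0.06 for PHF2 and -0.12 ± 0.11 for TET2. KDM4B, at 43.5, 41.3, 132 and 119 CPM in F279S, had -0.48 in libraries 1 and 2, which was called, and -0.17 in libraries 3 and 4, which was not.

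In the ER lines, 24 of 44 members were called in ERDD against ERAA, 17 higher and 7 lower. That is 54.5%, beside 68.1% of all genes, of which 4807 were higher and 4608 lower. The largest rises were those of DNMT1, which copies DNA methylation at replication, KDM8 (JMJD5), SUV39H1 and TRIM28, and the largest falls those of KDM6B, KDM4B, KDM7A, SETD7 and SETDB2. All 5 subunits and cofactors were higher. The median log2 fold change was 0.10 over the members and -0.001 over all genes. In ERPHF8 against ERAA, 25 members were called, 22 higher and 3 lower, which is 56.8%, beside 53.8% of all genes (4103 higher, 3333 lower), and the medians were 0.20 and 0.04. These comparisons share the 2 ERAA libraries, which differed from each other more than other ER replicates did, with a mean chi-square per gene of 16.9 in ERAA, beside 1.91 in ERDD and 3.53 in ERPHF8. The summed level of 15 replication and division genes was 5682 to 5725 CPM in ERDD, 5096 to 5141 CPM in ERPHF8 and 2988 to 3114 CPM in ERAA, and its part in the results was not tested.

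Among the DNA methylation enzymes, DNMT1 had 381 and 378 CPM in ERDD, 328 and 342 CPM in ERPHF8 and 216 and 191 CPM in ERAA. The ERAA libraries lay far below the others, with fold changes of 0.90 ± 0.06 (SE; adjusted p = 6.77e-06) for ERDD and 0.72 ± 0.06 (SE; adjusted p = 6.04e-05) for ERPHF8 against ERAA. DNMT3A went the other way in ERDD, with 51.3 and 49.4 CPM in ERDD, 64.5 and 66.9 CPM in ERPHF8 and 70.6 and 60.5 CPM in ERAA. It was lower in ERDD than in ERAA (-0.37, adjusted p = 0.00192) and not called in ERPHF8 against ERAA (0.01, adjusted p = 0.938). TET2 had 34.04 and 32.7 CPM in ERDD, 36.2 and 37.2 CPM in ERPHF8 and 29.2 and 23.1 CPM in ERAA. It was called higher against ERAA in both ERDD (0.35, adjusted p = 0.012; not without ERDD replicate 1) and ERPHF8 (0.49, adjusted p = 0.00384). DNMT3B had 10.9 and 11.8 CPM in ERDD, 12.6 and 12.5 CPM in ERPHF8 and 11.3 and 9.12 CPM in ERAA. It was called only for ERPHF8 against ERAA (0.29, adjusted p = 0.0402), a call that was lost in 5 of 6 fits leaving out 1 library and held without ERAA replicate 1. TET3 had 85.1 and 84.4 CPM in ERDD, 101 and 108 CPM in ERPHF8 and 99.6 and 83.8 CPM in ERAA, with -0.11 for ERDD and 0.19 for ERPHF8 against ERAA, neither called, and was lower in ERDD than in ERPHF8 (-0.30, adjusted p = 0.0131).

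**Figure D4:**
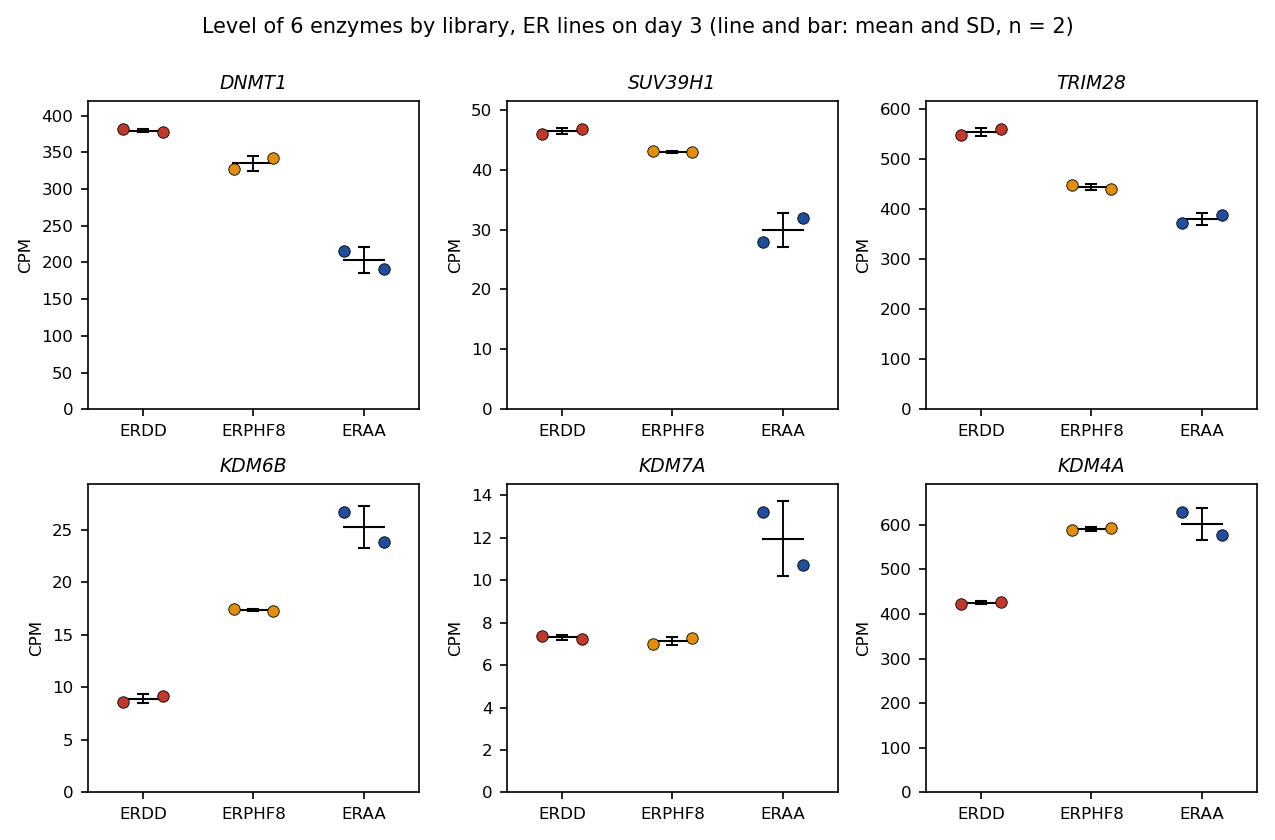
CPM of DNMT1, SUV39H1, TRIM28, KDM6B, KDM7A and KDM4A in each library of the ER lines on day 3, with ERDD left, ERPHF8 in the middle and ERAA right. The line and bar are the mean and SD (n = 2). DNMT1, SUV39H1 and TRIM28 are lowest in ERAA, KDM6B and KDM7A are highest in ERAA, and KDM4A is lowest in ERDD.

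Of the demethylases, KDM6B changed most, with 8.63 and 9.21 CPM in ERDD, 17.4 and 17.3 CPM in ERPHF8 and 26.6 and 23.9 CPM in ERAA. The 3 lines did not overlap, and the fold change was -1.45 ± 0.07 (SE; adjusted p = 1.95e-06) for ERDD and -0.53 ± 0.07 (SE; adjusted p = 0.000752) for ERPHF8 against ERAA. KDM4B had 37.9 and 35.8 CPM in ERDD, 53.1 and 55.6 CPM in ERPHF8 and 67.6 and 56.6 CPM in ERAA. It was lower in ERDD than in ERAA, with -0.74 ± 0.08 (SE; adjusted p = 9.11e-05), and not called in ERPHF8 against ERAA (-0.19, adjusted p = 0.0853). KDM4A likewise had 423 and 427 CPM in ERDD, 587 and 593 CPM in ERPHF8 and 628 and 576 CPM in ERAA. The ERDD libraries stood apart, with -0.50 ± 0.05 (SE; adjusted p = 4.79e-05) against ERAA.

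Against ERAA, the KDM7 relatives of PHF8 again moved apart, with signs opposite to those in PHF8 against wt. The references are unlike, since ERAA itself held 2305 and 1995 CPM of PHF8 RNA and wt 45.5 to 54.0 CPM. In wt, KDM7A was at most 3.22 CPM and PHF2 at least 48.6 CPM. Every ER library had more KDM7A and less PHF2 than that, as had the PHF8 libraries, so the signs do not show a reversal. KDM7A had 7.38 and 7.22 CPM in ERDD, 7.01 and 7.28 CPM in ERPHF8 and 13.2 and 10.7 CPM in ERAA. It was called lower against ERAA in both ERDD (-0.67 ± 0.10 SE, adjusted p = 0.000609) and ERPHF8 (-0.70 ± 0.10 SE, adjusted p = 0.000918). PHF2 had 23.2 and 24.3 CPM in ERDD, 26.4 and 25.8 CPM in ERPHF8 and 22.0 and 19.7 CPM in ERAA. Its rise was called in ERPHF8 (0.32, adjusted p = 0.00549) and in ERDD (0.18, adjusted p = 0.0417), where the call was lost in 5 of 6 fits leaving out 1 library and held without ERAA replicate 1. KDM1B, raised in PHF8 against wt, had 42.3 and 43.8 CPM in ERDD, 36.2 and 36.6 CPM in ERPHF8 and 42.0 and 38.0 CPM in ERAA. It was not called against ERAA (0.11 for ERDD and -0.13 for ERPHF8). All ER libraries, those of ERAA included, lay above the wt libraries of the first experiment (24.7 to 27.6 CPM). The missing call therefore does not show that the rise was absent. With no day 3 wt library analysed here, levels of the 2 experiments were not tested against each other.

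Other demethylases were higher against ERAA. KDM1A had 135 and 135 CPM in ERDD, 132 and 127 CPM in ERPHF8 and 106 and 102 CPM in ERAA (0.37, adjusted p = 0.0001 for ERDD against ERAA). KDM3B, an H3K9 demethylase, had 164 and 170.0 CPM in ERDD, 175 and 177 CPM in ERPHF8 and 137 and 119 CPM in ERAA (0.38, adjusted p = 0.000854). Both lay lowest in ERAA, as did KDM8, with 6.55 and 6.28 CPM in ERDD, 5.51 and 6.37 CPM in ERPHF8 and 4.20 and 3.56 CPM in ERAA (0.66, adjusted p = 0.000915). KDM2A had 135 and 136 CPM in ERDD, 134 and 144 CPM in ERPHF8 and 125 and 107 CPM in ERAA (0.23, adjusted p = 0.0185, not called without either ERDD library). KDM2B, KDM5A, KDM5B and KDM5C were not called against ERAA in either line.

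Among the methyltransferases, 5 of 17 were called in ERDD against ERAA and 11 of 17 in ERPHF8 against ERAA. That is 29.4%, beside 68.1% of all genes, and 64.7%, beside 53.8%. SUV39H1 had 46.0 and 46.7 CPM in ERDD, 43.1 and 42.9 CPM in ERPHF8 and 27.9 and 32.0 CPM in ERAA. Its fold change was 0.63 ± 0.07 (SE; adjusted p = 8.07e-05) in ERDD and 0.52 ± 0.07 (SE; adjusted p = 0.000483) in ERPHF8 against ERAA. DOT1L had 148 and 152 CPM in ERDD, 149.9 and 153 CPM in ERPHF8 and 119.7 and 113 CPM in ERAA and rose in both (0.37 in ERDD and 0.38 in ERPHF8). SETD1A, the catalytic subunit of an H3K4 methyltransferase complex, had 63.4 and 64.9 CPM in ERDD, 59.3 and 59.3 CPM in ERPHF8 and 51.3 and 49.8 CPM in ERAA, and was called in both comparisons (0.34 for ERDD, 0.23 for ERPHF8). These 3 methyltransferases were lowest in the ERAA libraries. SETD7, which monomethylates H3K4 and other proteins, fell, with 65.6 and 68.6 CPM in ERDD, 84.6 and 82.5 CPM in ERPHF8 and 107 and 95.7 CPM in ERAA (-0.59 for ERDD, -0.27 for ERPHF8). SETDB2 had 52.8 and 54.1 CPM in ERDD, 83.1 and 80.5 CPM in ERPHF8 and 87.6 and 74.6 CPM in ERAA. It was lower in ERDD than in ERAA (-0.59 ± 0.07 SE, adjusted p = 0.000164) and not called in ERPHF8 against ERAA (0.02, adjusted p = 0.855).

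The 7 further methyltransferases called higher in ERPHF8 against ERAA were KMT2D (0.74), ASH1L (0.60), KMT2A (0.45), NSD1 (0.37), SETD2 (0.32), EHMT1 (0.29) and SUV39H2 (0.25). KMT2D had 96.5 and 114 CPM in ERPHF8 and 73.4 and 53.7 CPM in ERAA, and ASH1L had 131 and 157 CPM in ERPHF8 and 111 and 79.7 CPM in ERAA. Both ERPHF8 libraries were above both ERAA libraries for these genes. The call was lost without ERPHF8 replicate 2 for ASH1L, NSD1, SETD2 and SUV39H2, and for SUV39H2 without ERPHF8 replicate 1 as well. KMT2B, KMT2E, SETD1B, SETDB1 and EHMT2 were not called against ERAA in either line.

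The complex subunits and cofactors all rose in ERDD against ERAA. TRIM28 had 548 and 559 CPM in ERDD, 449 and 440.0 CPM in ERPHF8 and 371 and 388 CPM in ERAA, with 0.54 ± 0.04 (SE; adjusted p = 1.35e-05) for ERDD against ERAA. RBBP5 had 70.4 and 69.5 CPM in ERDD, 59.0 and 57.3 CPM in ERPHF8 and 54.9 and 51.6 CPM in ERAA (0.39, adjusted p = 0.000179). WDR5 had 179.9 and 178 CPM in ERDD, 173 and 170.3 CPM in ERPHF8 and 147 and 149 CPM in ERAA (0.27, adjusted p = 0.000322). For these genes ERAA was the lowest line. ASH2L had 146 and 147 CPM in ERDD, 147 and 147 CPM in ERPHF8 and 123 and 128 CPM in ERAA (0.22, adjusted p = 0.00151). MEN1, with 51.4 and 50.5 CPM in ERDD, 49.2 and 47.7 CPM in ERPHF8 and 46.8 and 46.8 CPM in ERAA, rose in ERDD against ERAA (0.12, adjusted p = 0.043), and this call was lost without any 1 of the 4 ERDD and ERPHF8 libraries. Of the deacetylases, HDAC1 had 174 and 174 CPM in ERDD, 157 and 155 CPM in ERPHF8 and 146 and 148 CPM in ERAA, and HDAC2 had 211 and 209 CPM in ERDD, 229.7 and 228 CPM in ERPHF8 and 181 and 184 CPM in ERAA. Both were called higher in ERDD against ERAA (0.25 and 0.20), while HDAC3 was not (0.02).

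**Figure D5:**
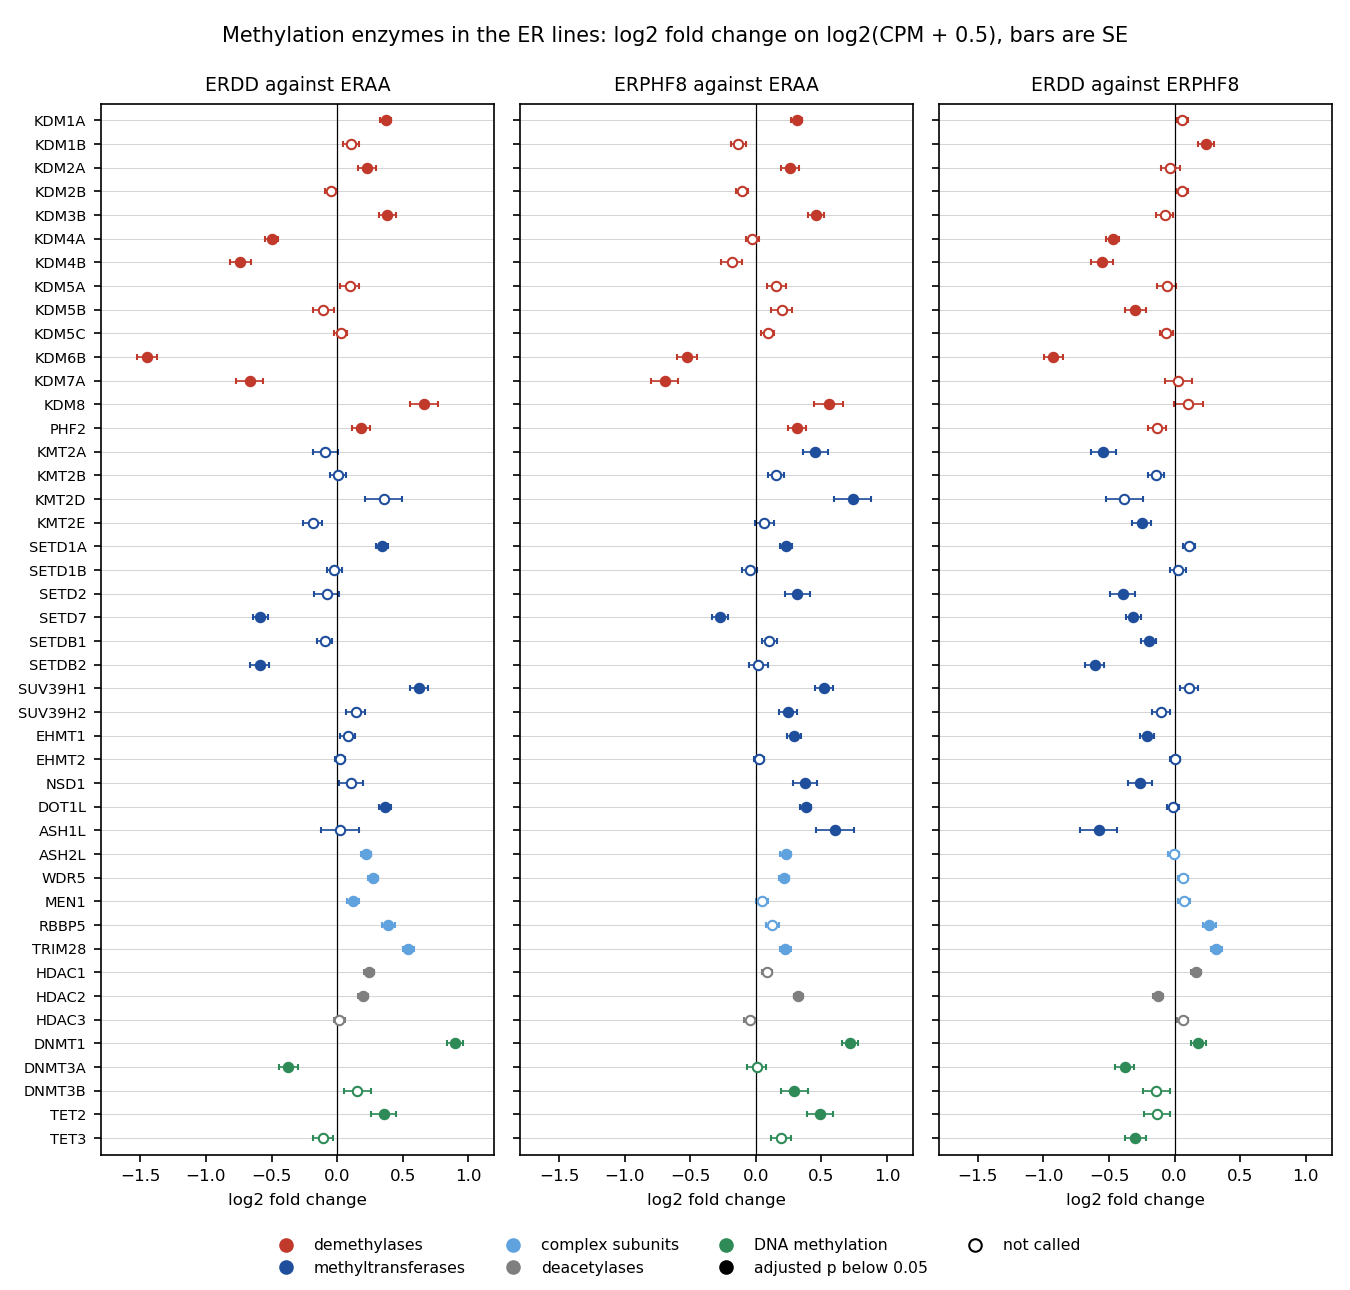
Log2 fold change on log2(CPM + 0.5) of the 44 enzymes tested in the ER lines, in ERDD against ERAA (left), ERPHF8 against ERAA (middle) and ERDD against ERPHF8 (right). Colours mark the enzyme class, bars are SE, and filled points have an adjusted p below 0.05, of which there are 24, 25 and 21. KDM6B lies at -1.45 on the left and DNMT1 at 0.90.

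In ERDD against ERPHF8, 21 members were called, 5 higher and 16 lower, which is 47.7%, beside 52.8% of all genes (3428 higher, 3877 lower). The median was -0.09 over the members and -0.02 over all genes. KDM6B was lower in ERDD, with -0.92 ± 0.07 (SE; adjusted p = 7.02e-05), as were KDM4B, with -0.55 ± 0.08 (SE; adjusted p = 0.00102), and KDM4A, with -0.47 ± 0.05 (SE; adjusted p = 0.000217). Of the 17 methyltransferases, 9 were called (52.9%), all of them lower in ERDD, with SETDB2 (-0.61 ± 0.07), ASH1L (-0.58 ± 0.14) and KMT2A (-0.54 ± 0.10) changing most. TRIM28 (0.32 ± 0.04), RBBP5 (0.26 ± 0.05), KDM1B (0.24 ± 0.06), DNMT1 (0.18 ± 0.06) and HDAC1 (0.16 ± 0.04) were higher. KDM7A and PHF2 were not called (0.03 and -0.13). Only 9 members were called without ERDD replicate 1, without ERDD replicate 2 or without ERPHF8 replicate 2, and KDM4A, KDM4B, KDM6B, KMT2A, SETD7, SETDB2, RBBP5, TRIM28 and DNMT3A were called in each of the 6 fits leaving out 1 library.

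A further 45 methylation and deacetylation enzymes and partners that are no members were listed for comparison, of which 42 were tested. In PHF8 against wt, 6 of these were called higher and 8 lower (33.3%, beside 21.0% of all genes). TET1, the dioxygenase that acts beside TET2 and TET3, stood at 6.28, 7.24, 11.6 and 12.7 CPM in PHF8, 2.03, 2.25, 3.56 and 4.12 CPM in F279S and 3.45, 3.61, 4.66 and 4.33 CPM in wt. All PHF8 libraries were above all others of the first experiment (1.09 ± 0.25 SE, adjusted p = 0.00792), in the direction opposite to TET2. JMJD1C, a JmjC protein related to KDM3B, was called higher (0.35 ± 0.08), and NSD2 (listed as WHSC1), a relative of NSD1, was called lower (-0.27 ± 0.07). In F279S against wt limma called 0 of the 42. In PHF8 against F279S 3 were called higher and 5 lower (19.0%, beside 20.1%).

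In the ER lines, 18 of the 42 were called higher and 15 lower in ERDD against ERAA, 19 higher and 7 lower in ERPHF8 against ERAA, and 10 higher and 16 lower in ERDD against ERPHF8. These are 78.6%, 61.9% and 61.9% of the list, beside 68.1%, 53.8% and 52.8% of all genes. UHRF1, which guides DNMT1 to replicated DNA, had 116 and 119 CPM in ERDD, 114 and 115 CPM in ERPHF8 and 69.6 and 62.0 CPM in ERAA. Like DNMT1, it was lowest in ERAA (0.83 ± 0.06 SE, adjusted p = 8.03e-06 for ERDD against ERAA). Of the arginine methyltransferases, PRMT1 (0.75 ± 0.05), PRMT5 (0.73 ± 0.04), CARM1 (0.37 ± 0.04) and PRMT6 (0.35 ± 0.04) were higher in ERDD than in ERAA, PRMT2 (-0.46 ± 0.04) was lower and PRMT7 (-0.04 ± 0.08) was not called. All 6 class II deacetylases on the list (HDAC4, HDAC5, HDAC6, HDAC7, HDAC9 and HDAC10) were lower, from -0.47 to -0.12. The other deacetylases on this list, HDAC8 and HDAC11, lay lower in ERDD too, so the fall was not particular to class II. It did not extend to the deacetylases among the members. Of those, HDAC1 (0.25) and HDAC2 (0.20) were called higher and HDAC3 (0.02) was not called. HDAC8 had 26.0 and 26.1 CPM in ERDD and 36.3 and 28.9 CPM in ERAA. HDAC11 had 2.51 and 2.42 CPM in ERDD and 3.39 and 3.88 CPM in ERAA. Of the 15 replication and division genes, 15 were called higher in ERDD against ERAA (median 0.81) and 15 in ERPHF8 against ERAA (median 0.67). In PHF8 against wt 4 of the 15 were called higher and 0 lower, beside 21.0% of all genes called. In PHF8 against F279S 3 were called higher and 0 lower, beside 20.1% of all genes called.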

How the data were processed

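Poly(A) RNA of 18 THP-1 libraries was sequenced on a NextSeq, per the labels' protocols. Alignment used STAR 2.7.0c on hg38 with SAMtools 1.9, and DESeq2 is named, per the submitters' processing notes. The counting tool, strand setting and annotation were not given in the sources used here, and the authors deposited RPKM values (reads scaled to the length of the whole gene span and to the library's total). RPKM times span gave CPM, and 100% of the deposited values came out as whole reads within 0.001.

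The members and lists were chosen with earlier results of these data known. Genes that reached 1 CPM in 4 or more libraries (first experiment, 13683 genes) or 2 or more (ER lines, 13831 genes) were tested with limma 3.58.1 (R 4.3.3) on log2(CPM + 0.5) with an intensity trend, one fit per experiment, and Benjamini-Hochberg adjustment over all tested genes (threshold 0.05). Limma voom on the recovered reads called 2828 genes in PHF8 against wt. In the first experiment, same-numbered libraries deviated together (r of 0.484 to 0.908 over the 3 pairs of lines). Libraries with different numbers were not compared. The check thus cannot tell pairing by number from the shared difference between libraries 1 and 2 and libraries 3 and 4. The labels give no pairing. The alternatives were other pseudocounts, no filter, median-ratio scaling, voom, the replicate block, a library pair term, each pair alone, and leaving out each library. Pairs averaged, collagen libraries left out and crossed numbers were chosen after seeing the data. Replicates differed beyond sampling noise in every group, with a mean chi-square per gene of at least 1.91. Depth of 18.2 to 51.5 M reads limits low genes such as KDM6A and KDM7A, and the limits for a count of 0 (3 reads) cover counting error only. Genes with values per library are those called in PHF8 against wt, PHF8 against F279S or ERDD against ERAA, the KDM7 family and the DNA methylation enzymes; others were added after their values were seen. Sequences and motifs were read from RefSeq promoter windows, which matched 41 of the 45 members.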

Additional observations from a re-analysis of the deposited data

Results flagged for a closer look

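PHF8 and the members were tested in 138 groups of 4 libraries. In 4 groups, 1 library had a gap to the nearest other that exceeded the share of the group's range that Dixon's test allows. Chance flags about 1 group in 20 where the 4 libraries vary alike, while here the library pairs differed in profile. KDM8 had 5.92 CPM in F279S replicate 2, 1 of the 2 libraries with collagen reads, against 4.06 to 4.37 CPM in the other F279S libraries. SETDB1 had 80.4 CPM in PHF8 replicate 4, against 94.3 to 97.1 CPM in the other PHF8 libraries. SETDB2 had 46.2 CPM in wt replicate 4, against 54.9 to 55.4 CPM in the other wt libraries. ASH1L had 147.5 CPM in wt replicate 3, against 99.8 to 107 CPM in the other wt libraries.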

How the results depend on the processing

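For PHF8 against wt (9 members), the replicate block gave 20, a library pair term 19, libraries 1 and 2 alone 19 and libraries 3 and 4 alone 18, while pairs averaged with the pair as a block gave 6. Of all genes, these 5 fits called 41.4%, 40.9%, 52.0%, 42.1% and 13.0%, beside 21.0% in the main fit. For PHF8 against F279S (5), the same fits gave 13, 9, 13, 11 and 4, and leaving out the 2 libraries with collagen reads gave 3. The shares of all genes there were 41.1%, 40.7%, 54.5%, 35.1%, 11.6% and 10.4%, beside 20.1% in the main fit. For F279S against wt (0), the block gave 2, the pair term 1, libraries 1 and 2 alone 5 and pairs averaged 0, beside 2.18%, 2.18%, 14.2% and 0.00731% of all genes. Leaving out 1 library gave 7 to 10, 3 to 6 and 0 to 0 in these comparisons, and 6 to 15 for the difference between pairs (12). In the ER lines it gave 20 to 33 for ERDD against ERAA, 19 to 35 for ERPHF8 against ERAA and 9 to 29 for ERDD against ERPHF8, and the replicate block gave 22, 24 and 20. The block called 65.6%, 49.9% and 49.2% of all genes in these 3 comparisons. For fits leaving out 1 library, shares of all genes are not given here. With the ERPHF8 numbers crossed, ERPHF8 against ERAA had 29 members called, beside 56.8% of all genes. The cause of these changes was not tested. Of the 9 calls in PHF8 against wt, 98 of 108 values from fits leaving out 1 library kept the call and 10 did not. No member called in the main fit changed direction under any alternative run. Calls of genes that are no members, and calls made only in an alternative fit, were not part of this check. The replicate block, the pair term and the averaged pairs left each fold change as it was, so they could not change a direction. Reads were counted over whole gene spans, and 10 members share part of theirs with another gene.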
